A study of Mus musculus with 12 samples.

Results

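The transcripts described here encode the stress sensors of the endoplasmic reticulum (ER) that act through transcription factors, together with their relatives and the proteases that release them: Atf6, Atf6b, Ern1, Xbp1, Creb3, Creb3l1, Creb3l2, Creb3l4, Mbtps1 and Mbtps2. They were chosen by name, and all 10 were found, among 24078 entries of a table of RPKM in mouse pancreatic islets. RPKM divide the reads of a transcript by its length and by the size of the library, so levels can be compared between transcripts. All 10 passed the minimum mean of 0.1 RPKM for testing, and the account centres on the 7 other than Atf6, Ern1 and Xbp1.

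Islets came from 4 wild-type (WT), 4 heterozygous (Wfs1HZ) and 4 homozygous mutant (Wfs1KO) male mice aged 5 to 6 months, F2 hybrids of 129S6/SvEvTac and C57BL/6, with 1 library for each animal. The mutants carried Wfs1tm1Koks, in which most of exon 8 of Wfs1 was replaced by a LacZ cassette. A truncated WFS1 fused to LacZ can still be made, so the allele is not an empty null. The mutation was in every tissue of the animal and not in the beta cells alone. Islets of all groups were picked by hand after collagenase digestion and kept overnight in high glucose medium before RNA was isolated, so no freshly isolated islets were measured.

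ATF6 and its relative ATF6B sit in the ER membrane, and when unfolded protein accumulates they travel to the Golgi, where the site-1 protease (Mbtps1) and the site-2 protease (Mbtps2) cut them and free a transcription factor. IRE1, the product of Ern1, stays in the ER and removes a short segment from Xbp1 mRNA, which changes the reading frame and yields the active XBP1 factor that secretory cells such as beta and acinar cells depend on. The CREB3 family (Creb3, Creb3l1, also known as OASIS, Creb3l2, also known as BBF2H7, and Creb3l4) is built like ATF6, is cut by the same proteases and is known for the secretory pathway and for collagen export in matrix-producing cells.

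The segment that IRE1 removes from Xbp1 mRNA is shown because it marks what these values cannot resolve. It has 26 nt, lies in the coding part of exon 4 of 5 at chr11:5524279-5524304 on the plus strand of GRCm38 (the same build as mm10), and is printed in capitals within its flanks, read from the GENCODE M21 transcript at chr11:5524259-5524324.
Xbp1: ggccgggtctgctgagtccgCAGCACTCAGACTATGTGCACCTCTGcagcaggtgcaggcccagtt
Its length leaves a remainder of 2 when divided by 3, which is why its removal shifts the frame. An RPKM of the whole gene counts spliced and unspliced Xbp1 mRNA together. In the same way the RPKM of Atf6 or of a CREB3 family member gives the mRNA and not the cut protein.

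The reads behind the RPKM, estimated from the steps between low values of short RNA genes, numbered 2190000 (Wfs1HZ replicate 2) to 9556000 (Wfs1KO replicate 1). These numbers are below the sequencing depth given for the study, so the read numbers and floors given for Atf6b and Creb3l4 are estimates. The targeted gene separated WT from both mutants, with 24.85 to 33.94 RPKM in WT, 4.69 to 16.43 in Wfs1HZ and 2.45 to 6.61 in Wfs1KO, and Wfs1HZ replicate 2 (4.69) lay within the range of the Wfs1KO animals. Summed markers of acinar cells ran from 49570 to 109335 RPKM in WT, but from 8171 (replicate 2) to 289957 (replicate 4) in Wfs1HZ and from 7734 (replicate 4) to 257638 (replicate 3) in Wfs1KO, so these 4 mutant libraries stood apart. Beta cell markers were present in every library, although Mafa was listed at 0 in all 4 WT libraries. In whole islets fewer cells of a type and less RNA per cell cannot be told apart.

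Over the 12 animals the levels covered a wide range. Xbp1 was the highest of the 10, with a mean of 221.6 RPKM (99.6th percentile of all entries). Atf6 (46.8 RPKM) and Ern1 (45.4 RPKM) followed, then Creb3l2 (35.1), Creb3 (34.0), Creb3l1 (24.2) and Mbtps1 (14.0 RPKM). Atf6b had 6.09 RPKM, Mbtps2 5.68 RPKM and Creb3l4 0.693 RPKM. Thus 3 CREB3 family members were at the 91.1st percentile of the table or higher, above both proteases and above Atf6b.

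Of the 9 pairs of neighbours in this order, 6 differed within animals by an exact two-sided sign-flip permutation test on log2 values (n = 12 animals, p adjusted over the 9 pairs 0.00146 to 0.0176). Xbp1 was above Atf6 in 12 of 12 animals, on average 4.66-fold. Mbtps1, the site-1 protease, was 2.38-fold above Atf6b, also in 12 of 12. Mbtps2 was 9.10-fold above Creb3l4 in 12 of 12. Ern1 exceeded Creb3l2 in 11, Creb3 exceeded Creb3l1 in 10 and Creb3l1 exceeded Mbtps1 in 9 of the 12 animals. The order of these CREB3 members was not the same in each genotype. Creb3l1 was above Creb3 in Wfs1KO replicates 1 and 2, with a median ratio of Creb3l1 to Creb3 of 1.01 in Wfs1KO against 0.431 in WT and 0.587 in Wfs1HZ. It was below Mbtps1 in WT replicates 2 and 3 and in Wfs1HZ replicate 2, and above it in every Wfs1KO animal. The places of Atf6 and Ern1 (7 of 12 animals, adjusted p = 0.795, exact permutation), of Creb3l2 and Creb3 (8 of 12, adjusted p = 0.795, exact permutation) and of Atf6b and Mbtps2 (6 of 12, adjusted p = 0.718, exact permutation) did not differ beyond their spread. The order compares levels of mRNA over all 3 genotypes and not the genotypes with each other.

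**Figure D1:**
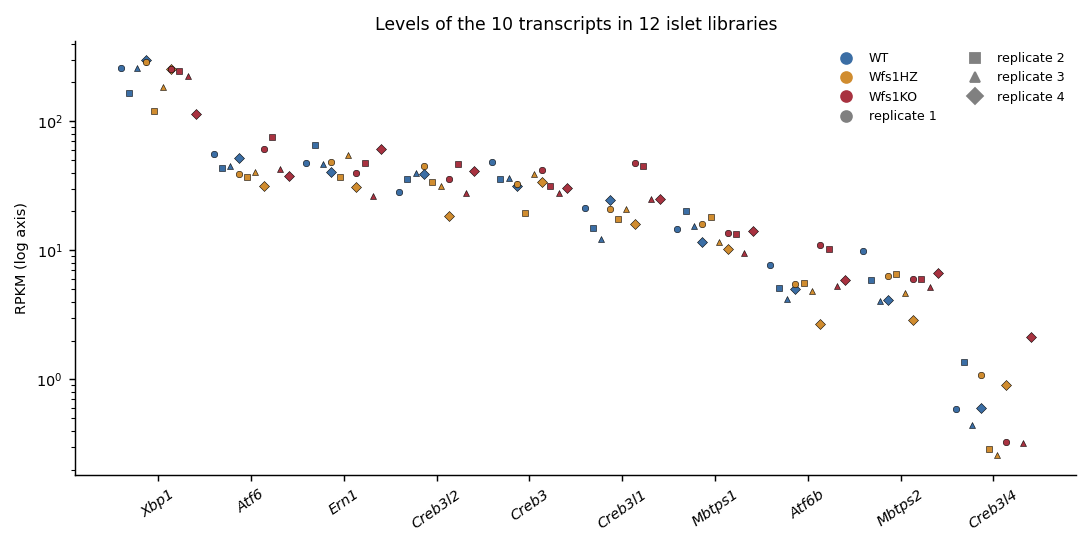
RPKM (log axis) of the 10 transcripts, ordered by mean level, in each of the 12 animals; colours mark genotypes and symbols replicate numbers. Creb3l4 in Wfs1KO replicate 2 is listed at 0 and is not drawn. Xbp1 lies above all others, and Creb3l4 reaches at most 2.14 RPKM.

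The genotypes were compared pair by pair with limma on log2(RPKM + 0.1), a scale on which the change of low transcripts is understated, over 21701 transcripts with Benjamini-Hochberg adjustment. A false discovery rate (FDR) under 0.05 was reached by 0 of the 10 between Wfs1KO and WT (background 0.0138% of transcripts), by 0 between Wfs1KO and Wfs1HZ (0.0%) and by 0 between Wfs1HZ and WT (0.0%). The targeted gene Wfs1 passed this FDR between Wfs1KO and WT (adjusted p = 0.040 from limma) but in neither other comparison. With a pseudocount of 1 or 0.01 its adjusted p from limma against WT was 0.0533 or 0.0631. The absence of members under this FDR thus does not show that they were unchanged. At an unadjusted p under 0.05 there was 1 of the 10 members in each comparison, against 5.64%, 2.45% and 2.35% of all transcripts. It was Creb3l1 in both comparisons with Wfs1KO and Atf6 in the third. The same genes were the members whose animals did not overlap, 1 of 10 each, where 2.74%, 1.43% and 1.66% of all transcripts were separated in either direction. For each member an exact permutation test (two-sided, on mean log2 values) was added, 30 tests in all, whose smallest possible p with 4 against 4 animals is 0.029.

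Creb3l1 was higher in every Wfs1KO animal than in any animal of the other genotypes. It encodes OASIS, a membrane-bound factor best known from bone and other matrix-secreting cells, and is found on chromosome 2 (91982328 to 92024502, minus strand), with 12 exons and a single annotated transcript. Its RPKM was 21.19, 14.9, 12.33 and 24.47 in WT replicates 1 to 4. It was 20.85, 17.38, 20.98 and 16.07 in Wfs1HZ. In Wfs1KO it was 47.1, 44.92, 25.02 and 25.17. Replicates 1 and 2 of Wfs1KO were far above all others, whereas replicates 3 and 4 were only just above the highest WT animal, at 24.47 RPKM.

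The mean of Creb3l1 in RPKM (± SD, n = 4) was 18.2 ± 5.59 for WT, 18.8 ± 2.48 for Wfs1HZ and 35.6 ± 12.1 for Wfs1KO. Between Wfs1KO and WT the log2 fold change was 0.95 (standard error 0.30, 95% confidence interval 0.27 to 1.63), a fold of 1.93, with an unadjusted p of 0.0116 and an adjusted p of 0.835 from limma. Between Wfs1KO and Wfs1HZ it was 0.86 (standard error 0.27, interval 0.26 to 1.46), a fold of 1.81, with an unadjusted p of 0.00978 and an adjusted p of 1 from limma. Both exact permutation tests gave p = 0.029. By unadjusted p Creb3l1 ranked 284 of 21701 transcripts in the first and 75 in the second comparison, and it did not pass the FDR in either. These comparisons share the Wfs1KO animals. Wfs1HZ and WT overlapped, with a log2 fold change of 0.09 (interval -0.47 to 0.64, exact permutation p = 0.8).

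Direction and size of Creb3l1 held over the alternatives, with log2 fold changes of 0.78 to 1.38 against WT and 0.70 to 1.13 against Wfs1HZ, and adjusted p from limma of 0.317 to 1 and 0.252 to 1. The separation of the animals was kept with each animal left out, and lost against both genotypes with median-of-ratios scaling and with quantile normalization. Without the 4 libraries of extreme acinar RNA, which leaves 2 Wfs1KO animals, the log2 fold change against WT was 1.38. The animals left are replicates 1 and 2, which had the highest Creb3l1, so a larger fold change followed from the choice. A ratio within a library is unchanged by a single factor per library, as in median-of-ratios scaling, but can be changed by quantile normalization. Divided by Creb3 of the same library, Creb3l1 was 0.338 to 0.779 in WT, 0.478 to 0.891 in Wfs1HZ and 0.828 to 1.42 in Wfs1KO. By this ratio of RPKM as deposited, Wfs1KO was above WT in every animal and overlapped with Wfs1HZ. Divided by Creb3l2, Creb3l1 was 0.313 to 0.748, 0.465 to 0.874 and 0.615 to 1.32, and all 3 genotypes overlapped.

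Summed markers of stromal and endothelial cells were also higher in Wfs1KO than in WT. The sum of 4 stromal markers (Col3a1, Dcn, Lum, Pdgfra) was 17.0 to 45.0 RPKM in WT and 52.2 to 96.4 RPKM in Wfs1KO. Of these 4 of 4 had a log2 fold change above 0, but Dcn alone separated the animals, at 13.95 to 28.82 and 41.96 to 73.07 RPKM. The sum of 3 endothelial markers (Pecam1, Cdh5, Kdr) was 15.4 to 41.3 in WT and 46.8 to 49.4 in Wfs1KO. Among them Cdh5 alone separated the animals, at 7.61 to 17.91 and 25.65 to 31.19 RPKM. Neither sum separated Wfs1KO from Wfs1HZ, where the ranges were 9.88 to 269.8 and 15.4 to 79.1 RPKM. Wfs1HZ replicate 2, with the highest stromal sum (269.8), had 17.38 RPKM of Creb3l1. Wfs1KO replicates 1 and 2, with the highest Creb3l1, had stromal sums of 52.5 and 66.3 RPKM. The same animals had the highest sums of duct cell markers of all 12 libraries, 1825 and 1894 RPKM. Duct sums overlapped, with 637 to 1360 RPKM in WT and 178 to 1894 in Wfs1KO, and 2 of 5 duct markers were above 0. Among these Sox9 alone separated the animals, at 3.06 to 5.41 and 6.66 to 7.15 RPKM. The part of these cells in the level of Creb3l1 was not tested.

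**Figure D2:**
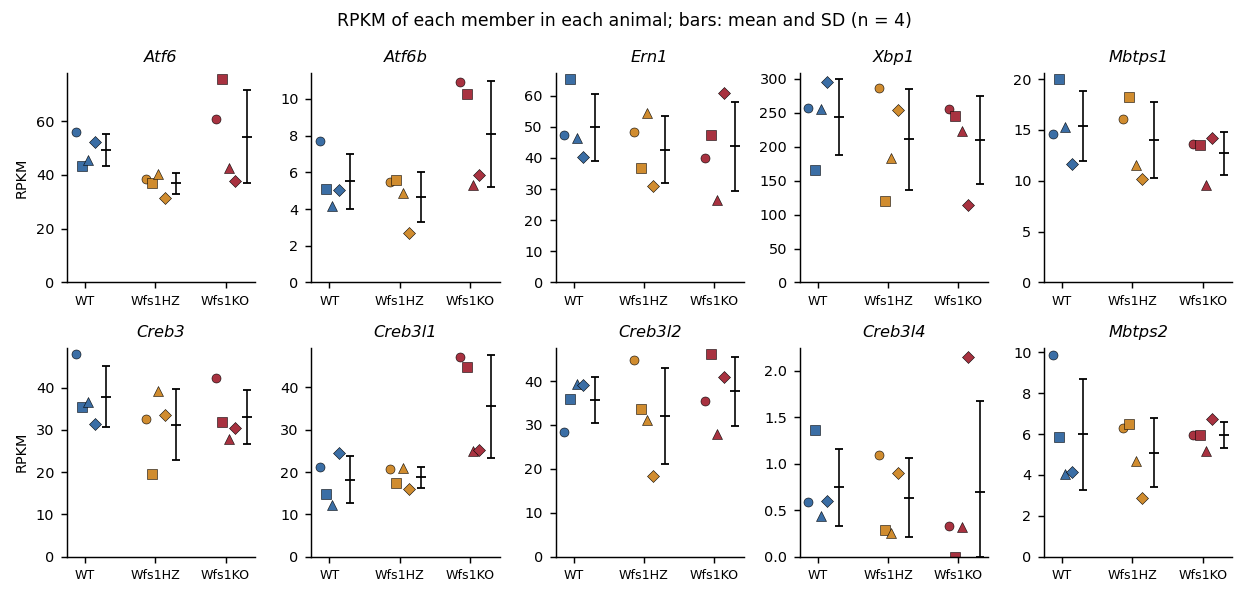
RPKM (linear axes from 0) of each of the 10 transcripts in each animal, with the mean and SD of the 4 animals of a genotype beside the points (the lower bar of Creb3l4 in Wfs1KO stops at 0). Creb3l1 is higher in all 4 Wfs1KO animals, and Atf6 is lower in all 4 Wfs1HZ animals than in WT.

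The other family members did not separate the genotypes. Creb3l2, the factor BBF2H7 of cartilage and other secretory tissues (chromosome 6, 37327255 to 37442146, minus strand), had 28.31, 35.9, 39.37 and 39.1 RPKM in WT. It had 44.88, 33.71, 31.24 and 18.38 in Wfs1HZ and 35.56, 46.23, 27.84 and 40.95 in Wfs1KO. The genotypes overlapped broadly, and Wfs1HZ held both a high and the lowest animal. Between Wfs1KO and WT its log2 fold change was 0.06 (95% confidence interval -0.38 to 0.51, exact permutation p = 0.714). Thus against WT the 0.95 estimated for Creb3l1 was outside the interval of Creb3l2, while smaller changes, up to 0.51, were not. The interval of Creb3l1 itself, 0.27 to 1.63, overlapped with that of Creb3l2, and a difference between these genes was not tested. Against Wfs1HZ the interval of Creb3l2 was -0.38 to 0.93, which holds the 0.86 found for Creb3l1 in that comparison.

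Creb3, the founding member, also known as Luman (chromosome 4, 43562332 to 43567060, plus strand), had 48.02, 35.4, 36.51 and 31.4 RPKM in WT. It had 32.67, 19.5, 39.21 and 33.61 in Wfs1HZ and 42.16, 31.74, 27.81 and 30.41 in Wfs1KO. WT replicate 1 was the highest and Wfs1HZ replicate 2 the lowest, and all genotypes overlapped. Log2 fold changes were -0.20 (interval -0.63 to 0.24) for Wfs1KO against WT and -0.30 (interval -0.86 to 0.25) for Wfs1HZ against WT. The exons of Creb3 overlap with those of the opposite-strand genes Tln1 (15.2% of their length) and Gba2 (5.61%), and since the cDNA kit does not keep the strand, reads of these genes cannot be told apart there.

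Creb3l4, known from prostate and other epithelia (chromosome 3, 90237500 to 90243512, minus strand), was close to the limit of detection. Its 0 to 2.14 RPKM stand for about 0 to 18.8 reads (median 5.42), and 3 reads correspond to 0.202 to 0.882 RPKM, depending on the library. The highest value was in Wfs1KO replicate 4 and the lowest, listed at 0, in Wfs1KO replicate 2. With an interval of -2.76 to 1.14 for the log2 fold change from WT to Wfs1KO, a difference was not detectable at this depth. Creb3l3, the hepatic relative, had 0 to 0.68 RPKM and was likewise near the limit.

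Atf6 was lower in every Wfs1HZ animal than in any WT animal, with no such separation in Wfs1KO. Its RPKM was 56.07, 43.5, 45.4 and 52.16 in WT. It was 38.67, 37.02, 40.47 and 31.47 in Wfs1HZ and 60.86, 75.65, 42.61 and 37.93 in Wfs1KO. The Wfs1KO animals fell apart, replicates 1 and 2 above all WT animals and replicates 3 and 4 below all of them. The log2 fold change between Wfs1HZ and WT was -0.41 (standard error 0.18, 95% confidence interval -0.81 to -0.02, unadjusted p = 0.0401 and adjusted p = 1 from limma, exact permutation p = 0.029). Over the alternatives it was -0.47 to -0.31, with an unadjusted p of 0.00982 to 0.121 from limma. The unadjusted p from limma was over 0.05 without WT replicate 1 (0.0921), WT replicate 4 (0.0874) or Wfs1HZ replicate 1 (0.0556). Most changes of the model also raised it above 0.05. These were dropping the variance trend (0.121), fitting all 12 libraries at once (0.104), the robust variance (0.098) and the replicate block (0.0519). So did scaling by quantiles (0.0637) or by median of ratios (0.119). It was 0.0864 without the acinar extremes and 0.0868 with the filter raised to 1 RPKM. In the other alternatives it stayed under 0.05. The animals of Atf6 remained separated with each animal left out and overlapped with both other scalings. Between Wfs1KO and Wfs1HZ the log2 fold change was 0.51 (interval -0.06 to 1.07, exact permutation p = 0.086).

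Atf6b, whose product is an ER-bound relative of ATF6 and a weaker activator (chromosome 17, 34647146 to 34655074, plus strand), had 7.69, 5.11, 4.19 and 5.05 RPKM in WT. It had 5.5, 5.57, 4.88 and 2.67 in Wfs1HZ and 10.9, 10.26, 5.33 and 5.87 in Wfs1KO. Again Wfs1KO replicates 1 and 2 were the highest of all animals and replicates 3 and 4 lay within the range of WT. The log2 fold change from WT to Wfs1KO was 0.51 (interval -0.18 to 1.20, exact permutation p = 0.171) and 0.77 between Wfs1KO and Wfs1HZ (interval -0.04 to 1.58, exact permutation p = 0.086). A doubling of Atf6b, 1 on the log2 scale, lies within both intervals. These values rest on about 31.3 to 267.3 reads.

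So in Atf6, Atf6b and Creb3l1 alike, the same pair of Wfs1KO animals had the highest values of all 12 libraries. Wfs1KO replicates 3 and 4 are the libraries with the most and the least acinar RNA of this genotype (257638 and 7734 RPKM), against 70973 and 61807 RPKM in replicates 1 and 2. In replicates 3 and 4 the single highest transcript held 33.4% and 41.4% of the summed RPKM, against 10.2% and 15.1% in replicates 1 and 2. In the libraries of WT and Wfs1HZ that share was 12.2% to 34.4%. Without Wfs1KO replicates 3 and 4 and the corresponding pair of Wfs1HZ libraries, the log2 fold change from WT to Wfs1KO was 0.47 for Atf6 and 0.96 for Atf6b. It rests on Wfs1KO replicates 1 and 2, the animals with the highest values, so larger fold changes followed from the choice and say nothing about acinar RNA. The part of acinar RNA, or of the share of the highest transcript, in these levels was not tested.

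Ern1, the gene of the sensor IRE1 (chromosome 11, 106394650 to 106487852, minus strand), varied within genotypes more than between them. Its RPKM was 47.23, 65.3, 46.58 and 40.41 in WT. It was 48.39, 36.74, 54.52 and 30.89 in Wfs1HZ and 39.89, 47.37, 26.54 and 61.02 in Wfs1KO. The genotypes overlapped in each comparison. Log2 fold changes were -0.24 (interval -0.77 to 0.29) between Wfs1HZ and WT and 0.01 (interval -0.65 to 0.67) between Wfs1KO and Wfs1HZ. Ern2, the epithelial relative, was at 0 to 1.38 RPKM.

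Xbp1 had 257.92, 165.54, 256.32 and 295.83 RPKM in WT. It had 286.7, 120.39, 183.12 and 253.67 in Wfs1HZ and 255.27, 245.49, 224 and 114.64 in Wfs1KO. The low values were in 1 animal of each genotype and not in a genotype: WT replicate 2, Wfs1HZ replicate 2 and Wfs1KO replicate 4. The log2 fold change between Wfs1HZ and WT was -0.25 (interval -0.98 to 0.48, exact permutation p = 0.514).

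The same 3 libraries had the lowest acinar marker sums of all 12 (49570, 8171 and 7734 RPKM) and the highest alpha cell marker sums (185626, 157632 and 220977 RPKM, with 50940 to 111097 in the other libraries). Their beta cell sums were the 3 lowest, at 32043, 12537 and 22329 RPKM. At the other end, Wfs1HZ replicate 4 and Wfs1KO replicate 3, with the highest acinar sums, had 253.67 and 224 RPKM of Xbp1, within the range of the rest. The part of the cell types in the level of Xbp1 was not tested.

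**Figure D3:**
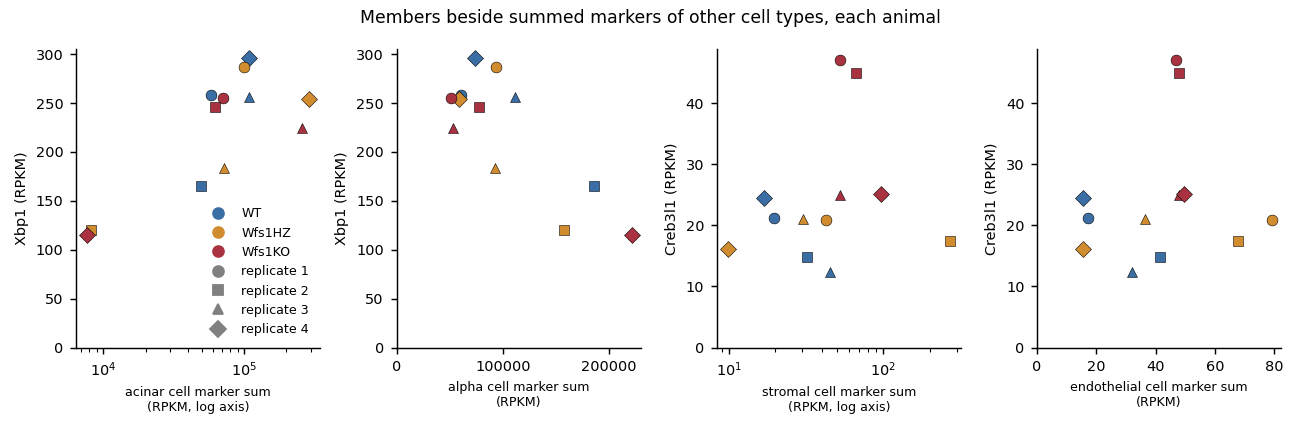
Xbp1 against the summed RPKM of acinar and alpha cell markers, and Creb3l1 against those of stromal and endothelial cell markers; each point is an animal, and the acinar and stromal axes are logarithmic. The lowest Xbp1 values are in the libraries with the least acinar and most alpha cell RNA, and the Wfs1KO animals lie to the right of WT in both Creb3l1 panels while Wfs1HZ spans the range.

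Both proteases overlapped between genotypes. Mbtps1 (chromosome 8, 119508156 to 119558735, minus strand) had 14.56, 20.06, 15.31 and 11.67 RPKM in WT. It had 16.07, 18.25, 11.58 and 10.16 in Wfs1HZ and 13.63, 13.48, 9.58 and 14.18 in Wfs1KO. All Wfs1KO animals but replicate 3 were close together, inside the range of WT. The log2 fold change from WT to Wfs1KO was -0.26 (interval -0.74 to 0.22, exact permutation p = 0.314). With median-of-ratios scaling, with quantile normalization and without WT replicate 4 its Wfs1KO and WT animals no longer overlapped, with Wfs1KO the lower.

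Mbtps2 (X chromosome, 157535371 to 157598715, minus strand) had 9.88, 5.87, 4.05 and 4.14 RPKM in WT. It had 6.32, 6.5, 4.67 and 2.88 in Wfs1HZ and 5.95, 5.95, 5.18 and 6.72 in Wfs1KO. The Wfs1KO values were close together, with an SD of 0.629 RPKM against 2.73 in WT, where replicate 1 was the highest of all. The log2 fold change from WT to Wfs1KO was 0.08 (interval -0.59 to 0.75). Of the exon length of Mbtps2, 28.4% is shared with Yy2 on the same strand, and reads from there cannot be assigned to either gene.

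**Figure D4:**
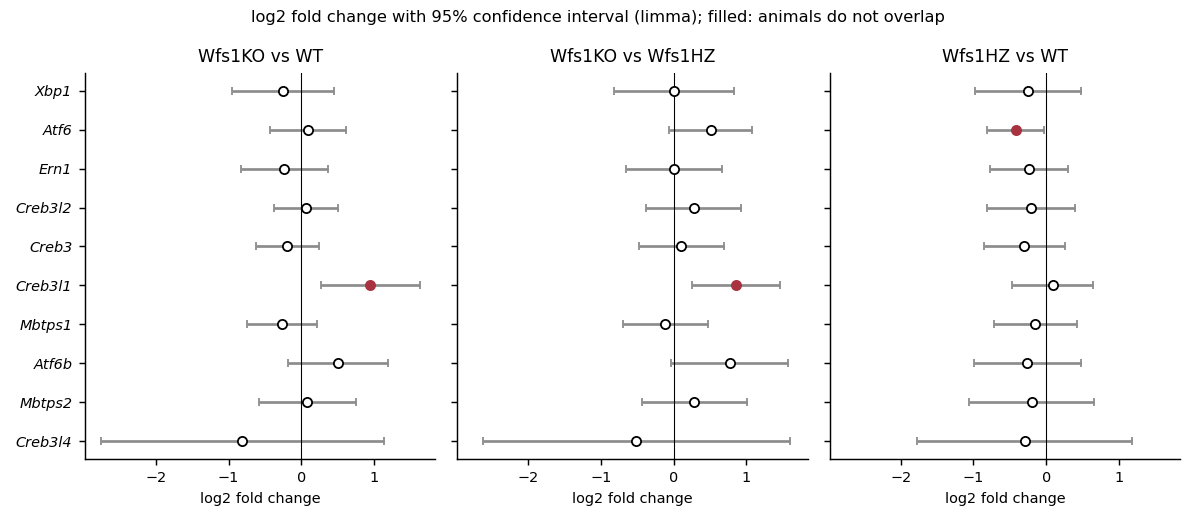
log2 fold changes of the 10 transcripts in the 3 comparisons, with 95% confidence intervals from limma; filled points mark transcripts whose animals did not overlap. Creb3l1 is filled in both comparisons with Wfs1KO (0.95 and 0.86) and Atf6 in the comparison of Wfs1HZ with WT (-0.41); the interval of Creb3l4 is the widest.

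As a group the members had between Wfs1KO and WT a median log2 fold change of -0.07 (5 of 10 above 0), beside 0.07 over all transcripts. Between Wfs1KO and Wfs1HZ the median was 0.19 (8 of 10 above 0, all transcripts 0.04). Between Wfs1HZ and WT it was -0.25 (1 of 10 above 0, all transcripts 0.04), and the exception was Creb3l1. These comparisons share animals in pairs, and the signs are descriptions, of which several changed with the scaling or with a single animal.

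The spread between animals of a genotype was smallest for Atf6, with an SD of 0.30 on the log2 scale, below that of all but 17.7% of transcripts of similar level. Mbtps1 (SD 0.33, 20.6th percentile) and Creb3 (SD 0.33, 26.8th percentile) followed. Xbp1 varied more than most of its peers (SD 0.50, 72.7th percentile), and Creb3l1 was average (SD 0.41, 50.5th percentile). The other members lay between 0.38 and 0.47, apart from Creb3l4 with 1.23.

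The transcripts whose profile over the 12 animals was most like that of a member were named by the smallest root-mean-square difference of centred log2 values among 13347 candidates. For Creb3l1 they were Rpl31 (0.24) and Aimp2 (0.24), less alike than those of most members. Closer were Zbtb20 to Ern1 (0.11), Gbf1 (0.12) and Heatr5a (0.12) to Atf6, and Vps26b (0.12) and Dync1li2 (0.13) to Mbtps1. Creb3l2 was followed by Fyco1 (0.14), Creb3 by 5133401N09Rik (0.15) and Stk25 (0.17), and Xbp1 by Tagln2 (0.16) and Capn5 (0.17). For Mbtps2 they were Qsox2 (0.14) and Cox5b (0.15), for Atf6b Chordc1 (0.19) and Vps28 (0.20), for Ern1 in second place Rap1gap2 (0.15), and for Creb3l4 Dnajc17 (0.57) and Ccdc109b (0.68). These are likenesses across libraries that also differ in cell composition.

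Genes that act downstream of the sensors or beside them were followed in lists. No gene of any list had an FDR under 0.05 in any comparison or alternative. Of 11 targets of ATF6, 5 had an unadjusted p under 0.05 and a higher level in Wfs1KO than in WT, and 0 a lower level, where the background is 3.91% higher and 1.74% lower. That background is uneven and depends on the scaling: 69.2% of the transcripts with p under 0.05 were higher in Wfs1KO, but 56.6% with median-of-ratios scaling and 46.8% with quantile normalization. The median log2 fold change of the targets was 0.48 (0.42 to 0.70 over the alternatives), and 11 of 11 were above 0 under every alternative, beside 57.8% of all transcripts. In the same comparison the markers of beta cells had a median log2 fold change of -0.75 (1 of 7 tested above 0, with summed levels of 32043 to 179738 RPKM in WT and 22329 to 91366 in Wfs1KO), those of stromal cells 1.13 (4 of 4) and those of endothelial cells 0.56 (3 of 3). Their part in the levels of these lists was not tested. Derl3, which helps to draw misfolded protein out of the ER, had 4.42 to 10.37 RPKM in WT and 17.88 to 28.96 in Wfs1KO (log2 fold change 1.72, adjusted p = 0.27 from limma). Sdf2l1, a partner of the chaperone BiP, had 20.54 to 42.13 and 46.83 to 99.46 RPKM (log2 fold change 0.97, adjusted p = 0.835 from limma). Creld2, a secreted ER stress protein, overlapped, with a log2 fold change of 0.55 (adjusted p = 0.84 from limma). Atf6 itself had a log2 fold change of 0.09 in this comparison. Against Wfs1HZ 6 of the 11 had an unadjusted p under 0.05 and were higher (background 1.7%), with a median of 0.63 (0.43 to 0.77 over the alternatives). There 11 of 11 were above 0, but 9 of 11 with sample weights and without the acinar extremes. Over the alternatives the counts at an unadjusted p under 0.05 were 1 to 8 against WT and 2 to 8 against Wfs1HZ. A single library mattered: against WT the count was 2 without WT replicate 2, WT replicate 4, Wfs1KO replicate 1 or Wfs1KO replicate 2, and against Wfs1HZ it was 3 without Wfs1HZ replicate 2, Wfs1KO replicate 1 or Wfs1KO replicate 2.

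Of 12 XBP1 targets, 3 had an unadjusted p under 0.05 and were higher in Wfs1KO than in WT (background 3.91%), with a median log2 fold change of 0.39 and 12 of 12 above 0 (57.8% of all transcripts). Of the 12, 10 were above 0 without WT replicate 2, without Wfs1KO replicate 2 and with quantile normalization, and the median was 0.26 without WT replicate 2. Pdia6, a disulfide isomerase, had 63.69 to 89.62 RPKM in WT and 111.54 to 182.52 in Wfs1KO (log2 fold change 0.82, adjusted p = 0.835 from limma). Edem2, which trims glycans of misfolded protein, and Dnajb11, a cochaperone, overlapped, with log2 fold changes of 0.76 and 0.47. Xbp1 itself had a log2 fold change of -0.25 there, and its spliced form was not measured. Against Wfs1HZ 5 of the 12 had an unadjusted p under 0.05 and were higher (background 1.7%), with a median of 0.57. Over the alternatives the counts were 2 to 8 and 1 to 7. Against WT the count was 6 without Wfs1KO replicate 4, and against Wfs1HZ it was 1 without Wfs1KO replicate 1, 2 without Wfs1KO replicate 2 or Wfs1HZ replicate 2, and 3 without Wfs1HZ replicate 4. Between Wfs1HZ and WT 0 of the 23 targets of both factors had an unadjusted p under 0.05, and the medians were -0.20 for ATF6 and -0.23 for XBP1 targets, with 4 of 11 and 3 of 12 above 0. These signs were not stable. The median of the ATF6 targets was -0.09 without WT replicate 1 and -0.08 without Wfs1HZ replicate 4. Without Wfs1HZ replicate 2 it was 0.13 (6 of 11 above 0, 1 at an unadjusted p under 0.05), with sample weights 0.25 and without the acinar extremes 0.29 (8 of 11 above 0 and 2 at an unadjusted p under 0.05 in both). That of the XBP1 targets was -0.09 without WT replicate 1 or without Wfs1HZ replicate 2, -0.14 without Wfs1HZ replicate 4 and 0.02 without the acinar extremes, and 1 of them was lower at an unadjusted p under 0.05 with the replicate block, without Wfs1HZ replicate 1 or without Wfs1HZ replicate 3. That such targets lay above 0 in Wfs1KO was known from earlier results on these animals and is no independent evidence.

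Other substrates of the site-1 and site-2 proteases and their escorts were mostly, apart from Gnptab, genes of the sterol pathway. Between Wfs1KO and WT their median log2 fold change was 0.43, with 6 of 6 above 0 (57.8% of all transcripts). At an unadjusted p under 0.05, 2 were higher (background 3.91%). Without WT replicate 3 the median was 0.27 with 5 of 6 above 0, and without Wfs1KO replicate 2, 4 of 6 were above 0. Insig1, which holds SREBP in the ER, had 16.25 to 32.17 RPKM in WT and 28.91 to 72.38 in Wfs1KO (log2 fold change 0.95). Srebf2, the regulator of cholesterol synthesis, had 13.37 to 25.38 and 22.38 to 39.26 (log2 fold change 0.68), and Srebf1 had a log2 fold change of 0.71. The adjusted p of these 3 was 0.835 to 0.882 from limma, and the animals overlapped. Over the alternatives 0 to 3 of the 6 had an unadjusted p under 0.05, with 0 without WT replicate 2, Wfs1KO replicate 1 or Wfs1KO replicate 2 and 1 without WT replicate 3.

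The collagen genes Col1a1 and Col1a2, targets of CREB3L1, had log2 fold changes of 1.48 and 1.42 between Wfs1KO and WT with standard errors of 0.85 and 0.84, and their animals overlapped. They are also stromal transcripts, and at most 20.68 RPKM in Wfs1KO. In the list of CREB3 relatives and targets 2 of 5 were above 0, the median was -0.08 (-0.22 to 0.67 over the alternatives), and Creb3l3 had -1.09. Its sign rests on single genes and libraries: the median was 0.67 over the 4 genes with a mean of 1 RPKM or more, which leaves out Creb3l3, 0.07 without WT replicate 3 and 0.06 without Wfs1KO replicate 3. Of the 6 substrates of IRE1-dependent mRNA decay, 4 were above 0 with a median of 0.42 (0.24 without Wfs1KO replicate 4, 0.28 without Wfs1KO replicate 1), 0 had an unadjusted p under 0.05 (1 without WT replicate 2 or Wfs1KO replicate 4), and the leading genes Col6a1 (1.11), Scara3 (0.67) and Sparc (0.63) are in part matrix genes. Among 7 tested partners and regulators of IRE1 the median was 0.04 (-0.06 to 0.27 over the alternatives), with 0.37 for Ern2, 0.19 for Traf2 and -0.19 for Map3k5, and 0 had an unadjusted p under 0.05.

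In the PERK arm, the remaining branch of the response, the median was 0.18, 5 of 6 were above 0 and 0 had an unadjusted p under 0.05 (1 without Wfs1KO replicate 4). The median was 0.05 without WT replicate 3, 0.08 without WT replicate 4, 0.06 without Wfs1KO replicate 1, 0.30 without WT replicate 1 and 0.28 without Wfs1KO replicate 3. Ppp1r15a, a phosphatase subunit that restores translation, had 29.03 to 30.19 RPKM in WT and 30.34 to 50.23 in Wfs1KO, which just separated the animals. Trib3 and Ddit3 overlapped, with log2 fold changes of 0.29 and 0.26.

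**Figure D5:**
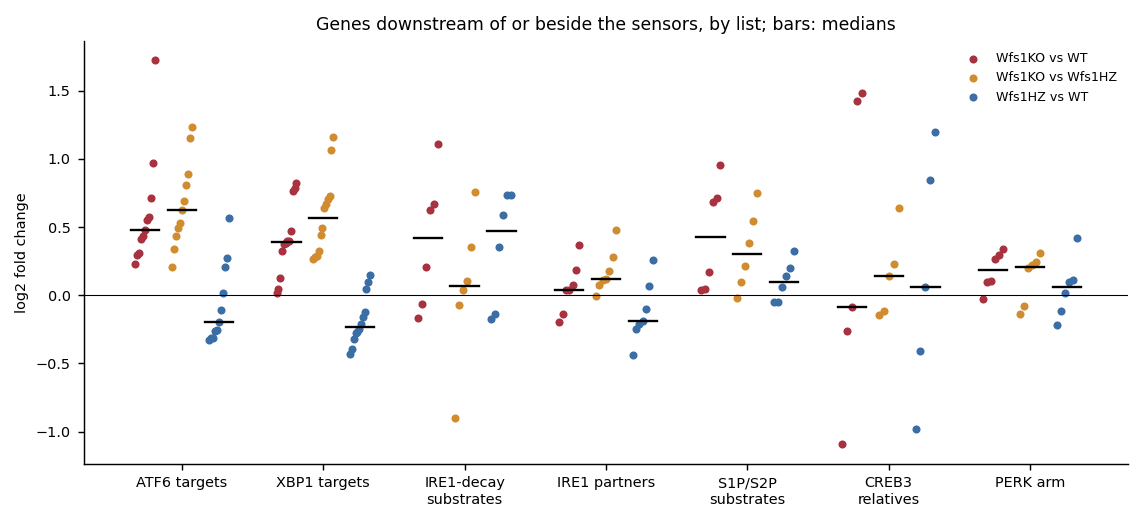
log2 fold changes of the genes of 7 lists in the 3 comparisons (colours); each point is a gene and the bars are medians. The ATF6 and XBP1 targets lie above 0 in both comparisons with Wfs1KO (medians 0.48 and 0.63, 0.39 and 0.57) and mostly below 0 between Wfs1HZ and WT, where the median of the ATF6 targets is above 0 without Wfs1HZ replicate 2 (0.13) or the acinar extremes (0.29). With sample weights or without the acinar extremes, 9 of the 11 ATF6 targets were above 0 against Wfs1HZ. With quantile normalization 10 of the 12 XBP1 targets were above 0 against WT. The comparisons share animals in pairs.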

How the data were processed

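Total RNA of the islets of each animal was converted to cDNA by the authors with the Ovation RNA-Seq System V2 from 10 ng, and fragments were sequenced on a SOLiD 5500xl from both ends (75 and 35 bp). LifeScope was used by the authors for mapping to mm10, and they deposited RPKM, 1 column for each animal; the annotation and the counting tool are not given in the sources used here. RPKM were used as deposited. Read numbers behind them were estimated from genes under 200 nt, whose low values were whole reads (within 0.05 read) in 94.9% to 100.0% of cases in each library, and cover counting error only.

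The genotypes were compared in pairs with limma (version 3.58.1, R version 4.3.3; trend in the variance) on log2(RPKM + 0.1) with Benjamini-Hochberg adjustment over the 21701 transcripts that averaged 0.1 RPKM or more. The procedure was tested on simulated data. Exact permutation tests were written in Python 3.11.15 with numpy 2.4.6. The t quantiles of the confidence intervals came from scipy 1.17.1, and pandas 2.3.3 and matplotlib 3.10.9 were also used. Coordinates are those of GENCODE M21, matched by exact name for 86.2% of entries. Of the lists the 3 genes with the smallest p between Wfs1KO and WT were named, and Rtcb of the IRE1 partners was not in the table. The members and lists were chosen with earlier results of these data known. The alternatives were 2 other pseudocounts, 2 other filters, 2 scalings, variances that were robust or without a trend, 1 fit of all 12 libraries, weights for the samples, a block for the replicate number, and leaving out each animal in turn. The libraries of extreme acinar RNA were left out in a further alternative, chosen after seeing the data, as were the ratios of Creb3l1 to Creb3 and Creb3l2. The second profile most like that of Creb3l2 is not reported here. Protein sequences and read-level splicing were not analysed here.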

Additional observations from a re-analysis of the deposited data

Results flagged for a closer look

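Among 30 sets of 4 animals (10 members in 3 genotypes), 2 held an animal far from the others by Dixon's criterion on the log2 scale, and chance gives about 1 in 20. Xbp1 in Wfs1KO replicate 4 was 114.64 RPKM, while the other Wfs1KO animals had 224 to 255.27 RPKM. Mbtps1 in Wfs1KO replicate 3 was 9.58 RPKM, while the others had 13.48 to 14.18 RPKM.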

How the results depend on the processing

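None of the 10 members had an FDR under 0.05 in any comparison or alternative. The levels were ranked anew in each of the 16 alternatives for the order, and 6 of the 9 neighbouring pairs differed in each. The order was not the same without Wfs1HZ replicate 2 and without Wfs1KO replicate 1, 2 or 3. Places were exchanged only between Atf6 and Ern1, Creb3l2 and Creb3, or Atf6b and Mbtps2. Between Wfs1KO and WT the FDR was under 0.05 for 3 transcripts, and for 0 with a pseudocount of 1, with the replicate block and without the extremes of acinar RNA, 1 in a single fit, 5 with quantile normalization and 0 to 1 with an animal left out. Between Wfs1KO and Wfs1HZ (0) the count was 1 with quantile normalization or a robust variance and 5 with sample weights. Between Wfs1HZ and WT (0) it was 1 without a filter and 2 without a variance trend. The members not overlapping numbered 0 with either scaling between Wfs1KO and Wfs1HZ and between Wfs1HZ and WT. Without the acinar extremes they numbered 4 for Wfs1KO against WT and 4 against Wfs1HZ. There only 2 Wfs1KO animals are left, replicates 1 and 2, which had the highest Atf6, Atf6b and Creb3l1. Fewer animals also overlap less readily. The share of all transcripts separated was not computed for the alternatives, so these counts have no background beside them. With an animal left out the members numbered 1 to 2 in both comparisons with Wfs1KO. The added member was Atf6b without WT replicate 1, Xbp1 without WT replicate 2, Mbtps1 without WT replicate 4 and Creb3l4 without Wfs1KO replicate 4 against WT, and Atf6b without Wfs1KO replicate 3 and Atf6 without Wfs1KO replicate 4 against Wfs1HZ.

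Log2 fold changes near 0 changed sign. With quantile normalization Atf6 was -0.0030 and Creb3l2 -0.013 against WT, and Ern1 -0.13, Xbp1 -0.20 and Creb3 -0.013 against Wfs1HZ. With median-of-ratios scaling Ern1 was -0.069 and Xbp1 -0.076 against Wfs1HZ. With sample weights Mbtps2 was -0.019 against WT, and Ern1 -0.24, Creb3 -0.032 and Mbtps1 0.028 against Wfs1HZ. Without the acinar extremes Xbp1 was 0.070 against WT and Ern1 -0.24 against Wfs1HZ, and between Wfs1HZ and WT Ern1 was 0.065 and Creb3l2 0.082. With an animal left out the ranges against WT were -0.087 to 0.24 for Atf6, -0.042 to 0.20 for Creb3l2, -0.069 to 0.35 for Mbtps2 and -0.43 to 0.016 for Xbp1. Against Wfs1HZ they were -0.10 to 0.23 for Creb3, -1.28 to 0.21 for Creb3l4, -0.17 to 0.23 for Ern1, -0.26 to 0.023 for Mbtps1 and -0.24 to 0.27 for Xbp1. Between Wfs1HZ and WT they were -0.080 to 0.25 for Creb3l1, -0.40 to 0.032 for Creb3l2, -0.60 to 0.00094 for Creb3l4 and -0.35 to 0.070 for Mbtps2. The cause of these changes was not tested.

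Same-numbered animals are different animals. The correlations of their deviations were -0.13 to 0.06, -0.17 to 0.09 and -0.05 to 0.23 in the 3 comparisons, and 3, 1 and 5 of 8 animals correlated best with their own number. With the replicate block 1091, 395 and 854 transcripts had an unadjusted p under 0.05, against 1225, 532 and 511 without it. Depth limits Creb3l4 most.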
